A study of Rattus norvegicus with 26 samples.

Results

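Fezf2, Nr4a2, Etv1, Trib2 and Lxn were grouped as markers of the boundary of cortex and subiculum. They were followed across 26 hippocampal arrays of aged rats that had eaten 1 of 3 vitamin D3 diets. Where in the tissue block these genes were expressed was not measured. Each gene was represented by the probe set whose only symbol in the array annotation was that gene, and every one of the 5 had 1 such probe set. They were 5 of 8485 genes tested and of 14506 genes with a probe set, and all 5 passed the intensity filter on their mean over all arrays. The genes were selected on measured values of these same arrays, because their levels differed with diet. Their differences by diet are therefore given as a description, with an SE and with no p-value. The selection did not use the comparison between rats with marked and unmarked tails. Relations of the 5 genes to other marker lists were tested as well. Those lists were chosen with earlier results of these data known, and covariation between rats was part of how the genes were defined. The relations are therefore not fully independent of the selection.

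The animals were male rats of the strain Fisher 344, 18 months old, and each array held RNA from the hippocampal tissue block of 1 rat. The diets held 100 IU (low, 8 rats), 1000 IU (control, 9 rats) or 10000 IU (high, 9 rats) of vitamin D3 per kg, and no group carried an allele or a further agent in the labels. Within a cage, 1 rat had a marked tail, which gave 13 marked and 13 unmarked rats in 14 cages, and 12 cages contributed both rats. Rats are named by their diet and their subject number. In a bulk tissue block, fewer cells of a type and less RNA per cell cannot be told apart.

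Fezf2 is a zinc finger transcription factor that specifies deep-layer cortical neurons projecting below the cortex. Etv1 (Er81) is an ETS transcription factor used as a marker of cortical layer V. Nr4a2 (Nurr1) is an orphan nuclear receptor found in the deepest cortical cells, the claustrum and the subiculum, and it is also induced by neuronal activity. Trib2 is a pseudokinase that directs C/EBP alpha to degradation. Lxn (latexin) is an inhibitor of carboxypeptidase A and marks deep-layer neurons of lateral cortex and the claustrum. The subiculum and the adjoining cortex border the CA1 field, so the edge of a hippocampal tissue block can carry them.

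Values were log2 probe set values as deposited, with array medians between 6.92 and 6.96. Each array correlated with the rest at a mean of 0.997 to 0.998. With limma, 0 of 8485 genes were called between high and low, between high and control or between low and control at an adjusted p under 0.17 (0% called in each). The unadjusted p was under 0.05 for 613, 393 and 193 genes, and the test without moderation gave 0 calls too, with 608, 400 and 201 genes below that unadjusted level. The precision is limited by the number of arrays: the median SE of a difference between high and low was 0.036 log2. Of the markers of hippocampal fields with a probe set, 5 of 6 for CA1, 8 of 10 for CA2 and CA3 and 3 of 4 for dentate were above the intensity filter. Markers of neighbouring regions passed it too, 3 of 5 for thalamus, among them Slc17a6, 3 of 6 for striatum and 1 of 7 for choroid plexus. The blocks were therefore not shown to be free of these regions. Of all genes with a probe set, 8485 of 14506 passed, so these small counts do not show which regions the blocks held.

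The promoters are shown because several of these genes varied together from rat to rat. Each window runs from 250 bases before to 50 bases after 1 transcript start that a RefSeq promoter table (build GRCr8) gives for the gene, read 5′ to 3′ on the strand of the gene, and all 5 genes matched by gene ID. For Fezf2, Etv1 and Nr4a2 the window lies inside the annotated gene span, so that start is not the outermost end of the gene. The 4 printed are those of the pair that varied together most closely, Fezf2 and Etv1, and of the pair with the lowest correlation, Trib2 and Lxn. Capitals mark the GC box GGGCGG or the E-box CAGCTG on either strand, so that a GC box on the opposite strand reads CCGCCC. The windows lie at chr15:15203943-15204242 (+) for Fezf2, chr6:61317179-61317478 (+) for Etv1, chr6:44299045-44299344 (-) for Trib2 and chr2:154043424-154043723 (-) for Lxn.
Fezf2: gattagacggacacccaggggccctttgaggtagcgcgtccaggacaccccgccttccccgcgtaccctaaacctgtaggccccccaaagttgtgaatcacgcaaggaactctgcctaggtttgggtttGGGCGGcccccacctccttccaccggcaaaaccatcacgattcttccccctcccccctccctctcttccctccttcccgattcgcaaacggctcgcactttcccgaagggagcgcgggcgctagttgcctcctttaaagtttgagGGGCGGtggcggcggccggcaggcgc
Etv1: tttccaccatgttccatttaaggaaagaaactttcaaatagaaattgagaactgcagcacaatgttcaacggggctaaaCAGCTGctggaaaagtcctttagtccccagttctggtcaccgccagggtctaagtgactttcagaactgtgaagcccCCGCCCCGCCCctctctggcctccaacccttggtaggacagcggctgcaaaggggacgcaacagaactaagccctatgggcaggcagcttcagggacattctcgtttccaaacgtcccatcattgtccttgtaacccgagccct
Trib2: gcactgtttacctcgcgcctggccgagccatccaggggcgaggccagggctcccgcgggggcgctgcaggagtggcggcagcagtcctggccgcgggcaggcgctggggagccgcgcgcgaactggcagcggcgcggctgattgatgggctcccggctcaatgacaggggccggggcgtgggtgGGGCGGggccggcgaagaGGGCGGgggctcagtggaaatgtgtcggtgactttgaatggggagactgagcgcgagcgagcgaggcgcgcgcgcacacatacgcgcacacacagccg
Lxn: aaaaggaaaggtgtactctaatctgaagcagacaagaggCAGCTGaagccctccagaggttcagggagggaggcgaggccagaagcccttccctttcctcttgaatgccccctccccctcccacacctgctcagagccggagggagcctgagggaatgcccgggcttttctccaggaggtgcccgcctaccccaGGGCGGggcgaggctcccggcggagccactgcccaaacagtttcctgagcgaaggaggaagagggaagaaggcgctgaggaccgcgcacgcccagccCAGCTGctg

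The GC box was found in the windows of 4 of the 5 genes, all but Nr4a2, against 33.1% of 33469 rat promoter windows. Fezf2 had it at positions -121 and 25 relative to the start used for its window, Trib2 at -66 and -48, Lxn at -56, and Etv1 had a pair of overlapping copies on the opposite strand. The E-box was found in Etv1 and in Lxn, against 15.1% of all windows. Other letters were searched on both strands and were in 0 of the 5 windows. These were the NGFI-B response element AAAGGTCA (1.43% of all windows), the nuclear receptor core AGGTCA (16.2%), the ETS core CCGGAA (15.0%), the cyclic AMP response element TGACGTCA (1.83%), the TATA box TATAAA (14.2%) and the degenerate direct repeat of the vitamin D response element (0.0986%). The first of these contains that core, so their matches overlap. The GC content was 63.3% in Fezf2, 48.7% in Nr4a2, 52.0% in Etv1, 73.0% in Trib2 and 64.0% in Lxn, against a median of 51.7%. A match is a description of letters and not of a bound site.

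Fezf2 (probe set 10779423, chr15:15199045-15207982 in GRCr8) had its widest spread on the high diet. Its lowest, median and highest log2 values were 9.21, 9.35 and 9.37 on low, 9.23, 9.43 and 9.60 on control, and 9.14, 9.49 and 9.75 on high. The 8 low-diet rats were close together, while the high-diet rats reached both the lowest and the highest value of all 26. The groups overlapped, with the highest low-diet rat exceeded by 7 of 9 high-diet rats and the highest control rat by 2 of 9. The mean was 9.31 ± 0.06 for low, 9.41 ± 0.14 for control and 9.49 ± 0.18 for high (SD, n = 8, 9 and 9). The difference was 0.18 log2 (SE 0.062) for high minus low, 0.084 (SE 0.060) for high minus control and -0.091 (SE 0.062) for low minus control. Of all tested genes, 6.10% had a larger SD within diets than the 0.14 log2 of Fezf2.

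Etv1 (probe set 10884339, chr6:61316836-61408985) had nearly equal means on low and control and a higher mean on high. Its lowest, median and highest log2 values were 11.72, 11.84 and 11.93 on low, 11.73, 11.81 and 11.95 on control, and 11.72, 11.92 and 12.05 on high. On the high diet, 4 of 9 rats exceeded all low-diet rats, 4 exceeded all control rats, and 1 lay below all rats of both other diets. The means were 11.83 ± 0.07, 11.83 ± 0.07 and 11.92 ± 0.10 on low, control and high (SD, n = 8, 9 and 9). The difference was 0.096 log2 for high minus low (SE 0.039) and for high minus control (SE 0.038), and -0.00037 (SE 0.039) for low minus control.

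Nr4a2 (probe set 10845384, chr3:62098739-62115926) was higher on high than on both other diets, with its lowest mean on control. Its lowest, median and highest log2 values were 11.87, 11.95 and 12.12 on low, 11.82, 11.96 and 12.08 on control, and 11.82, 12.12 and 12.23 on high. On the high diet, 5 of 9 rats exceeded all low-diet rats and 6 of 9 exceeded all control rats, so that the groups overlapped. The means were 11.98 ± 0.08, 11.94 ± 0.10 and 12.09 ± 0.12 on low, control and high (SD, n = 8, 9 and 9). The difference was 0.11 log2 (SE 0.047) for high minus low, 0.15 (SE 0.046) for high minus control and 0.033 (SE 0.047) for low minus control.

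Trib2 (probe set 10889263, chr6:44274762-44299139), the pseudokinase gene, had the order control, low, high in its means. Its lowest, median and highest log2 values were 8.89, 9.09 and 9.21 on low, 8.84, 9.04 and 9.18 on control, and 9.07, 9.15 and 9.33 on high. All 9 high-diet rats lay above the control mean, and 7 of 9 control rats lay below every high-diet rat. The means were 9.08 ± 0.11, 9.02 ± 0.09 and 9.18 ± 0.09 on low, control and high (SD, n = 8, 9 and 9). The difference was 0.095 log2 (SE 0.045) for high minus low, 0.16 (SE 0.044) for high minus control and 0.062 (SE 0.045) for low minus control.

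Lxn (probe set 10823548, chr2:154037604-154043473), the carboxypeptidase inhibitor gene, had the largest difference between high and low of the 5 genes. Its lowest, median and highest log2 values were 10.57, 10.82 and 10.92 on low, 10.75, 10.83 and 10.91 on control, and 10.70, 11.05 and 11.13 on high. On the high diet, 7 of 9 rats exceeded all rats of both other diets. The 2 lowest values of all rats came from low cage 8. The means were 10.79 ± 0.12, 10.83 ± 0.06 and 11.00 ± 0.14 on low, control and high (SD, n = 8, 9 and 9). The difference was 0.20 log2 (SE 0.052), a ratio of 1.15, for high minus low, 0.16 (SE 0.050) for high minus control and -0.037 (SE 0.052) for low minus control.

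**Figure D1:**
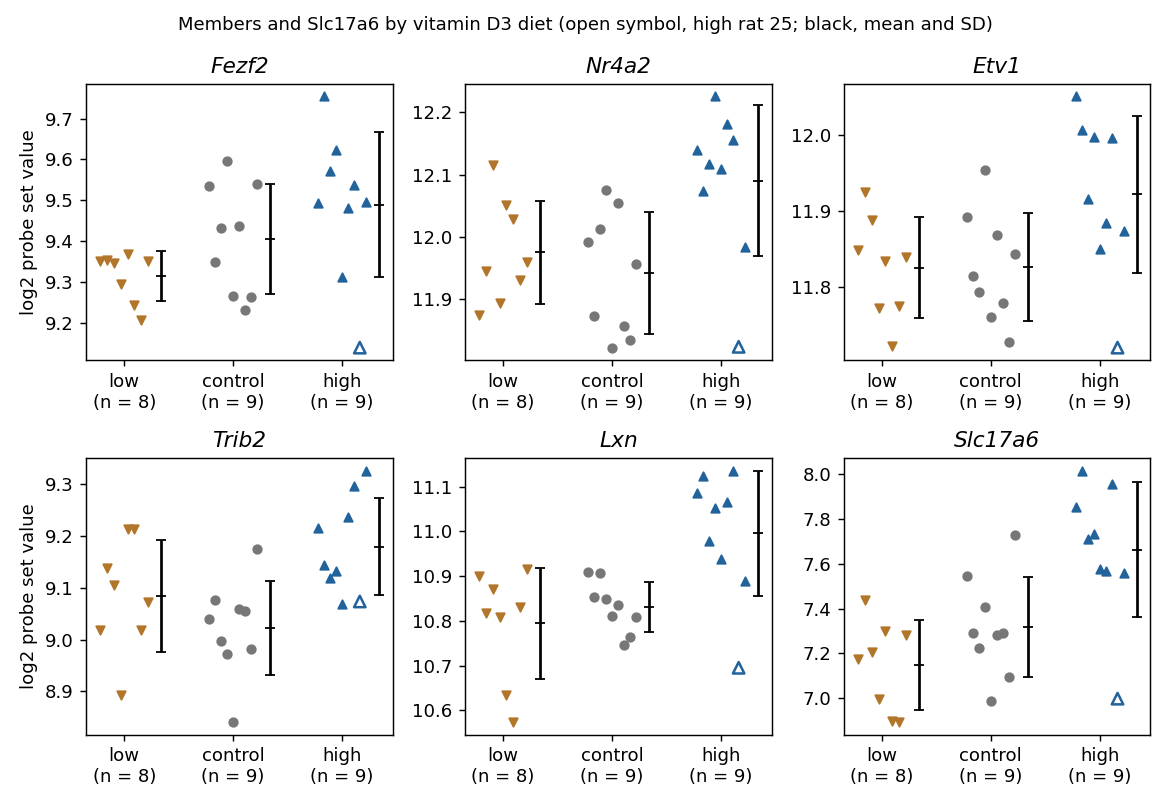
Log2 probe set value of each of the 5 genes and of Slc17a6 (y axis) by diet (x axis), with 1 point per rat and the mean and SD in black. The open triangle is high rat 25, which has the lowest high-diet value in every panel except Trib2.

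Between high and low all 5 genes had differences above 0, a direction that selected them, where 55.2% of all tested genes did. Between high and control all 5 did as well, against 50.6% of all genes. Between low and control 2 of the 5, Nr4a2 and Trib2, had differences above 0, against 44.1% of all genes. The first and the second comparison share the high-diet rats, and the second and the third share the control rats, so that they are not independent. The differences for high minus low and for high minus control kept their sign for every one of the 5 genes under 7 alternatives. These were array weights by quality, cage as a random block, a fit of just the compared diets, quantile normalization, the tail mark added to the model, array medians set equal, and values beyond 2 SD of a diet mean taken out. The fit of just the compared diets leaves the difference unchanged by its construction. The genes were selected on these differences, so a kept sign is a description and not support for them. With cage as a random block, high minus low was 0.18 log2 for Fezf2, 0.12 for Nr4a2, 0.097 for Etv1, 0.097 for Trib2 and 0.20 for Lxn.

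The tail mark was a comparison that played no part in the choice of the genes, and 0 of the 5 genes passed the test. Fezf2 differed by -0.055 log2 for marked minus unmarked (SE 0.050, limma adjusted p = 0.952). The difference was 0.0057 for Nr4a2 (adjusted p = 0.992), 0.0047 for Etv1 (0.992), -0.016 for Trib2 (0.981) and -0.017 for Lxn (0.982). Each of the 5 differences had a 95% interval that held 0, and for Fezf2 it reached from -0.16 to 0.047. Single rats moved these values. Without high rat 25 the difference was -0.029 for Fezf2, 0.0062 for Lxn, 0.027 for Nr4a2, 0.021 for Etv1 and -0.0082 for Trib2, and without high rat 19 it was -0.031 for Fezf2. Over all rats left out in turn the sign of Nr4a2, Etv1 and Lxn was not kept. Paired within the 12 cages that hold both rats, an alternative added after seeing the data, the difference was -0.053 for Fezf2 (SE 0.052, limma adjusted p = 0.899), and the marked rat was higher in 4 of 12 cages. In that fit 0 of the 5 genes and 0 of all genes were called, with 499 genes at an unadjusted p below 0.05. Over all tested genes limma gave 0 calls by the tail mark (0% called). The unadjusted p was under 0.05 for 451 genes, and for 492 in the test without moderation, which gave 0 calls too.

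High rat 25 was at or near the low end of the high-diet rats in the 5 genes, and in none of them was it flagged as an outlier. It had the lowest high-diet value in Fezf2 (9.14), Etv1 (11.72), Nr4a2 (11.82) and Lxn (10.70), and in Fezf2 and Etv1 it was the lowest of all 26 rats. In Trib2 it was the second lowest of the high-diet rats, at 9.07. Its score of other cortical layer markers was the second highest of all 26 rats, at 9.22, while its score of subiculum and retrohippocampal markers was the lowest, at 8.67. The subiculum score includes Slc17a6, in which this rat was also the lowest of the high-diet rats, at 7.00. The array quality weight of rat 25 was 0.967, within the range of 0.474 to 1.64 over all arrays. Without this rat, high minus low became 0.22 log2 for Fezf2, 0.15 for Nr4a2, 0.12 for Etv1, 0.11 for Trib2 and 0.24 for Lxn. High minus control became 0.13 for Fezf2, more than 1.5 times the 0.084 with it. No other rat moved a difference for high minus low or high minus control of these genes upward by as much in Fezf2, Nr4a2, Etv1 and Lxn. Without high rat 19, which had the highest Fezf2 value (9.75), high minus control of Fezf2 was 0.051. For low minus control, Lxn was -0.0053 without low rat 6 and -0.014 without low rat 5, against -0.037 with both. Nr4a2 was 0.013 without low rat 3, 0.018 without control rat 13, 0.020 without control rat 16 and 0.050 without control rat 12, against 0.033 over all rats. Trib2 was 0.040 without control rat 13, against 0.062, and the sign of Etv1 changed with the rat left out.

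After diet means were subtracted, Fezf2, Etv1, Nr4a2 and Lxn had higher r with each other than with Trib2 over 26 rats, an order that did not hold for every pair without high rat 25. Fezf2 and Etv1 were the closest pair, with a Pearson r of 0.815 and a Spearman rho of 0.799 over 26 rats. Etv1 and Lxn followed with r = 0.710, Nr4a2 and Etv1 with 0.647, Fezf2 and Nr4a2 with 0.637, Fezf2 and Lxn with 0.611 and Nr4a2 and Lxn with 0.429. Trib2 had r = 0.347 with Nr4a2, 0.284 with Fezf2, 0.253 with Etv1 and -0.078 with Lxn. These values describe probe sets read on the same arrays, so that tissue composition and array effects are shared between the genes of a pair, and the covariation was part of how the genes were defined.

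Among the 10 pairs, 9 had r above 0 and the median r was 0.520. Among all 35993370 pairs of tested genes, 56.0% had r above 0 and the median was 0.041. In each pair the 2 rats farthest from the median of its first gene were then left out, in the order Fezf2, Nr4a2, Etv1, Trib2 and Lxn. The rats left out therefore depended on that gene. The median r of the 10 pairs was 0.313 without them, and Fezf2 with Etv1 had 0.736. Without high rat 25 it was 0.338, with 0.733 for Fezf2 with Etv1, 0.575 for Etv1 with Lxn and 0.133 for Nr4a2 with Lxn. Nr4a2 with Trib2 was 0.263 and Fezf2 with Trib2 0.186 without that rat, both above Nr4a2 with Lxn. Trib2 with Lxn was -0.281 without high rat 25 and 0.060 without low rat 6. The median r of the pairs was 0.172 within low, 0.563 within control and 0.687 within high, and r was above 0 in 8, 10 and 10 of the 10 pairs. Within low, Nr4a2 had r = 0.691 with Trib2 and -0.401 with Lxn, and Trib2 with Lxn was -0.631, while Trib2 with Lxn was 0.0045 within control and 0.378 within high. Over the means of 14 cages the median was 0.459, with 7 of 10 pairs above 0. Fezf2 with Etv1 was 0.885 there, and Trib2 with Fezf2, Etv1 and Lxn were the 3 pairs below 0.

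**Figure D2:**
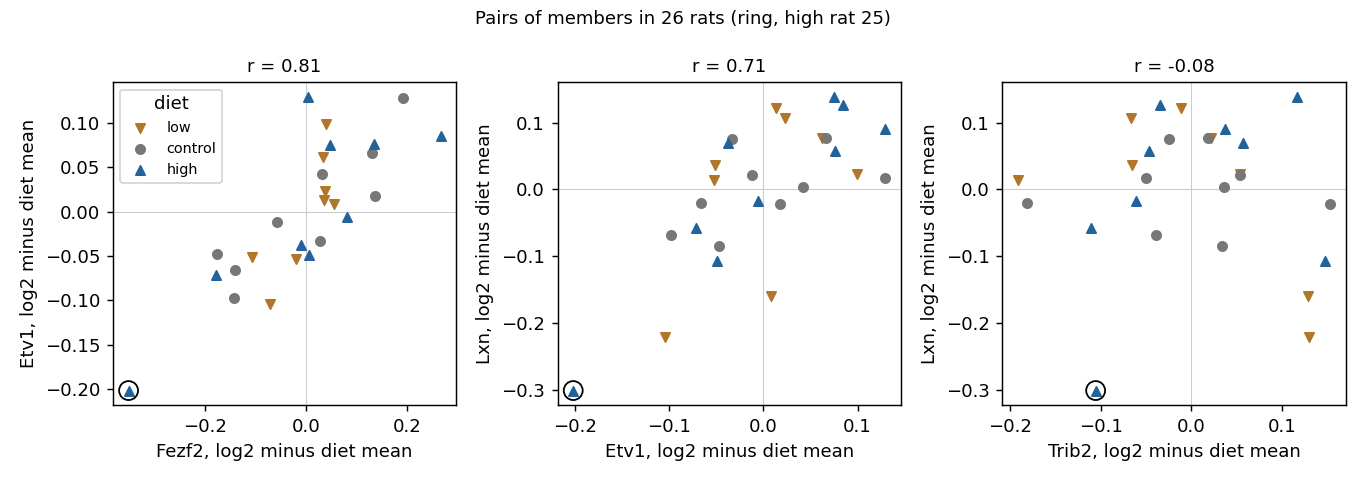
Each panel plots 1 gene against another as log2 value minus the mean of the diet (both axes), with 1 point per rat and diet shown by symbol. The rats rise along a diagonal for Fezf2 with Etv1 (r = 0.815) and for Etv1 with Lxn (r = 0.710) and show no slope for Trib2 with Lxn (r = -0.078), and the ring marks high rat 25 at the low end of the first 2 panels.

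The genes outside the group that varied most like each member over the 26 rats differed between members. For Fezf2 they were Chrna5, the nicotinic receptor alpha5 subunit gene (r = 0.884), Ankrd34b, an ankyrin repeat gene (0.866), and Slc17a6, the vesicular glutamate transporter VGLUT2 (0.814). For Etv1 they were the same 3 genes, Slc17a6 (0.843), Ankrd34b (0.797) and Chrna5 (0.770). Lxn was nearest to Drd5, the dopamine D5 receptor gene (0.690), Lca5, a ciliary protein gene (0.646), and Chrna5 (0.642).

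For Nr4a2 the nearest genes were Nmbr, the neuromedin B receptor (r = 0.781), Snx8, a sorting nexin (0.690), and Nts, the neurotensin precursor (0.659). For Trib2 they were Pole4, an accessory subunit of DNA polymerase epsilon (0.675), Slc25a16, a mitochondrial carrier (0.665), and Peli3, a Pellino ubiquitin ligase (0.617). Of the 50 genes nearest to each, Fezf2 and Etv1 shared 25, Etv1 and Lxn 21 and Fezf2 and Lxn 18, while Trib2 and Lxn shared 2. Without high rat 25, r was 0.827 for Fezf2 with Chrna5, 0.771 for Etv1 with Slc17a6, 0.664 for Nr4a2 with Nmbr, 0.653 for Trib2 with Pole4 and 0.529 for Lxn with Drd5.

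**Figure D3:**
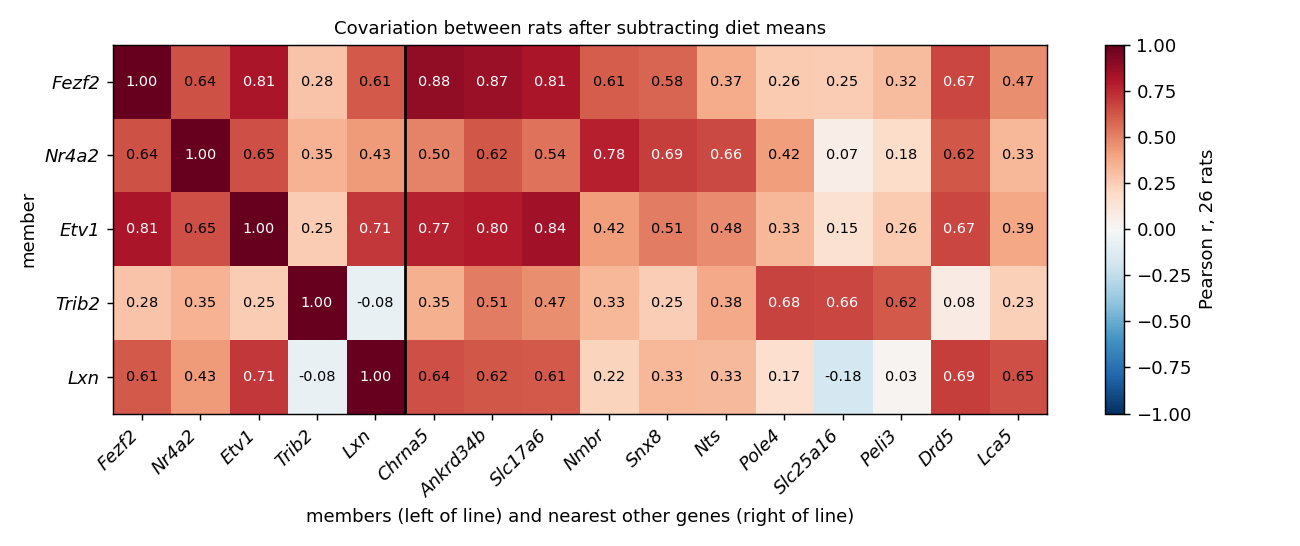
Pearson r between each of the 5 genes (rows) and the 5 genes and their 11 nearest other genes (columns), over 26 rats after subtracting diet means, with colour from -1 to 1. The rows of Fezf2, Etv1 and Lxn are dark over Chrna5, Ankrd34b and Slc17a6 (r between 0.614 and 0.884). In the same order of columns, r is 0.499, 0.624 and 0.542 for Nr4a2 and 0.353, 0.509 and 0.466 for Trib2. With Drd5, Trib2 has r = 0.079.

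Slc17a6 (probe set 10707325), which marks glutamatergic neurons of the subiculum, retrosplenial cortex and thalamus, had its highest mean on the high diet, as these genes did. Its lowest, median and highest log2 values were 6.89, 7.19 and 7.44 on low, 6.98, 7.29 and 7.73 on control, and 7.00, 7.71 and 8.02 on high. On the high diet, 8 of 9 rats exceeded all low-diet rats, and the ninth was rat 25. The difference was 0.52 log2 (SE 0.11) for high minus low, 0.35 (SE 0.11) for high minus control and -0.17 (SE 0.11) for low minus control. Over 26 rats its r with the members was 0.843 for Etv1, 0.814 for Fezf2, 0.614 for Lxn, 0.542 for Nr4a2 and 0.466 for Trib2. It had been known from the same arrays and is not independent of the choice of the 5 genes.

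Of the other 10 nearest genes, 0 were called by limma in any diet comparison. Chrna5 averaged 7.43 ± 0.18 for low, 7.44 ± 0.25 for control and 7.70 ± 0.40 for high (SD, n = 8, 9 and 9), and high minus low was 0.27 log2 (SE 0.13, limma adjusted p = 0.680). Nmbr had 8.11 ± 0.09, 8.11 ± 0.06 and 8.28 ± 0.13 in the same order of diets, and high minus low was 0.16 (SE 0.046, adjusted p = 0.625). Drd5 had 8.50 ± 0.15, 8.49 ± 0.26 and 8.73 ± 0.27, and high minus low was 0.23 (SE 0.10, adjusted p = 0.680). Lca5, near to Lxn between rats, had means of 8.55, 8.54 and 8.55 and a high minus low of -0.0077 (SE 0.024, adjusted p = 0.961).

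By median difference, cage mates were closer to each other than other rats of their diet in Lxn, and farther apart in Fezf2. The correlation of cage mates within diets was 0.709 for Lxn, a value exceeded by 2.55% of tested genes, where the median gene had 0.134. It was 0.241 for Etv1, 0.096 for Nr4a2, 0.053 for Trib2 and -0.111 for Fezf2, a value exceeded by 75.8% of tested genes. In Lxn, cage mates differed by a median of 0.069 log2 over 12 cages, and the other 88 pairs of rats on the same diet by 0.092. In Fezf2, cage mates differed by a median of 0.16 log2 and the other pairs by 0.11. The 2 low-diet rats of cage 8 had Lxn values of 10.63 and 10.57, apart from the other 6 low-diet rats at 10.81 or above. High rat 25 and its cage mate, high rat 26, were the lowest high-diet pair in Lxn, at 10.70 and 10.89. The correlation of cage mates is a description of 12 pairs, with no test.

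**Figure D4:**
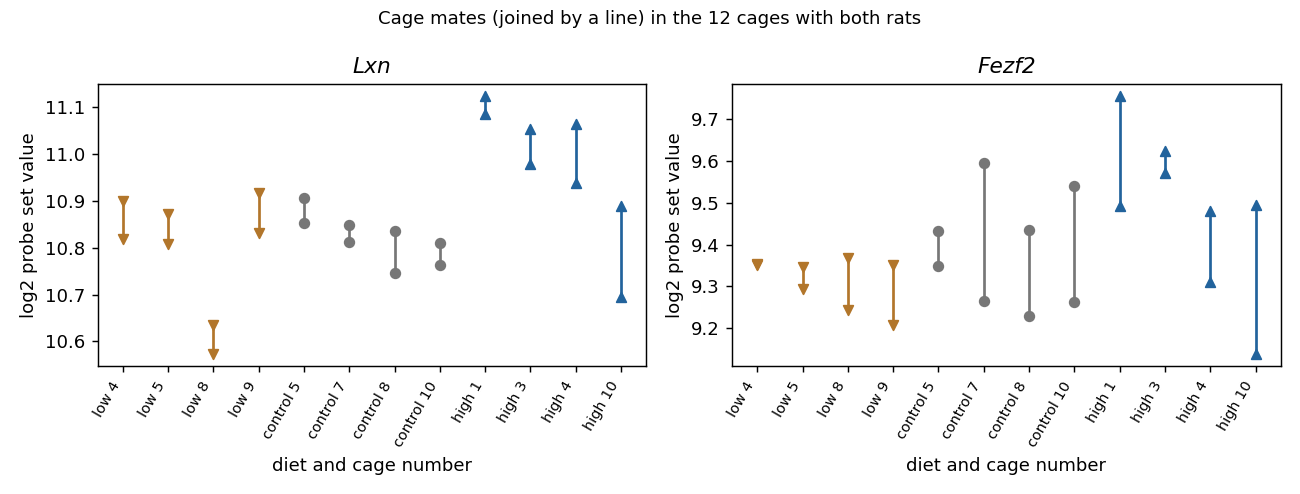
Log2 value (y axis) of Lxn and of Fezf2 for the 2 rats of each of the 12 cages with both rats, joined by a line, with cages on the x axis ordered by diet. Cage mates have a median difference of 0.069 in Lxn and of 0.16 in Fezf2, where single cages range from 0.00075 to 0.36.

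Markers of the regions around the hippocampus were set beside the 5 genes, from lists chosen with earlier results of these data known. Of 25 markers of other cortical layers, 15 had a probe set with only their symbol in the annotation used here and 11 were tested. Of these 11, 6 had a higher mean on the high than on the low diet, and the list's median difference was 0.025 log2, against 55.2% and a median of 0.0053 over all genes. The mean r of a marker with the 5 genes over 26 rats was above 0 for 5 of the 11, with a median of -0.053, where 37.7% of all tested genes were above 0 and the median was -0.055. Ldb2, which encodes a LIM domain binding cofactor, had the highest mean r of the list, 0.461. Ldb2 differed by 0.22 log2 for high minus low (SE 0.072, limma adjusted p = 0.674). Tle4, a corepressor of deep-layer neurons, had the lowest mean r, -0.320.

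Of 12 subiculum and retrohippocampal markers, 9 were tested and 7 had a higher mean on the high than on the low diet, and the median difference was 0.12 log2. The mean r with the 5 genes was above 0 for 7 of the 9, against 37.7% of all tested genes, and the list median was 0.159. Slc17a6 (0.656), Tpbg, the trophoblast glycoprotein gene (0.566), and Nts (0.442) were highest, and Wfs1, the wolframin gene, which also marks CA1, was lowest (-0.294). Tpbg differed by 0.24 log2 for high minus low (SE 0.13, limma adjusted p = 0.734), and Fn1, the fibronectin gene, by -0.25 (SE 0.068, adjusted p = 0.625). The mean score of the list lay between 8.69 and 8.83 on low, between 8.70 and 8.99 on control and between 8.67 and 9.00 on high. Its r over 26 rats was 0.787 with Fezf2, 0.665 with Etv1, 0.559 with Nr4a2, 0.515 with Lxn and 0.515 with Trib2. Without the 2 rats farthest from the median of the member it was 0.687, 0.583, 0.254, 0.383 and 0.461 in the same order of genes. The score includes Slc17a6, among the nearest genes of Fezf2 and Etv1, and Nts, among those of Nr4a2. Part of these r values is therefore built in, and no p is given. The part of subiculum and retrohippocampal markers in the differences of the 5 genes by diet was not tested.

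Markers of the hippocampal fields mostly had a mean r below 0 with the 5 genes, as most tested genes did. Of the 5 tested CA1 markers, 0 were higher in mean on the high diet than on the low one, against 55.2% of all tested genes. The median difference of the CA1 markers was -0.081 log2. The mean r with the 5 genes was above 0 for 1 of 5 CA1 markers, Man1a1, for 0 of 8 CA2 and CA3 markers and for 1 of 3 dentate markers, Calb1. The medians were -0.286, -0.200 and -0.206, where 37.7% of all tested genes had a mean r above 0 and the median was -0.055. The CA1 score lay between 10.81 and 11.00 on low, between 10.60 and 10.97 on control and between 10.47 and 10.93 on high. High rat 19, with the highest Fezf2 and Slc17a6 values, had the lowest CA1 score.

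Of all tested genes, 55.2% had a higher mean on high than on low and 37.7% had a mean r above 0 with the 5 genes. Of 9 endothelial and mural markers, 0 were higher in mean on the high diet than on the low one. Their median difference was -0.072 log2, and 1 of the 9 had a mean r above 0 with the 5 genes. All 6 tested interneuron markers had a mean r above 0, between 0.0052 for Npy and 0.268 for Pvalb, and 5 of 6 had a higher mean on high than on low. All 6 tested oligodendrocyte markers had a mean r below 0, with a median of -0.249, and 3 of 6 had a higher mean on high. Of the 3 tested thalamus markers, Slc17a6 had a mean r of 0.656, Prkcd of -0.0022 and Zic1 of -0.276, and Lef1 and Calb2 were below the intensity filter. Of the 3 tested striatum markers, all had a higher mean on the high diet than on the low one and 2 had a mean r above 0. For high minus low, Ppp1r1b differed by just 0.0012 log2 (SE 0.042) and Rgs9 by 0.019 (SE 0.032). Penk, the proenkephalin gene, differed by 0.12 log2 for high minus low (SE 0.048, limma adjusted p = 0.680), while Drd1, Drd2 and Adora2a were below the filter. For the choroid plexus, Ttr, the transthyretin gene, was tested and 6 other markers were below the filter. Ttr ranged from 7.61 to 10.06 on low, from 6.69 to 12.91 on control and from 6.79 to 11.05 on high, and its mean r with the 5 genes was -0.045.

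**Figure D5:**
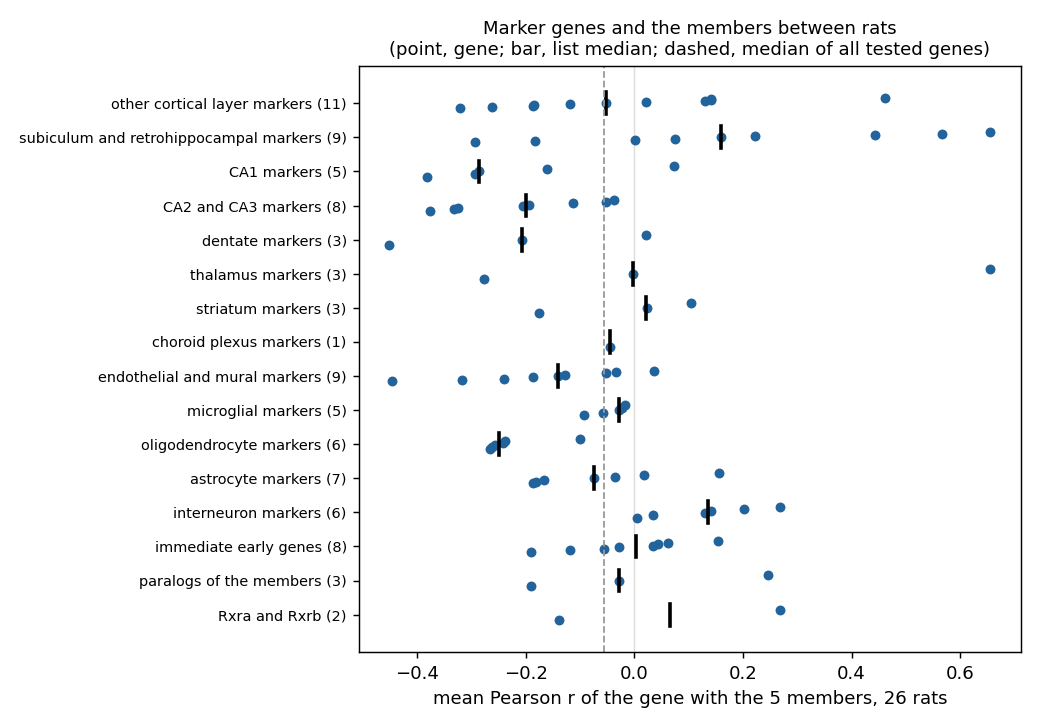
Mean Pearson r of each tested marker gene with the 5 genes over 26 rats (x axis), by marker list (rows, number of genes in brackets), with a bar at the list median and a dashed line at the median of all tested genes, -0.055. The rightmost gene, Slc17a6 at 0.656, stands in both the subiculum and the thalamus list, while all CA2, CA3 and oligodendrocyte genes lie below 0.

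Across 13 lists that contain no member and not Slc17a6, 65 relations of a single gene to a list score were tested by permutation of rats within diets, and 0 had an adjusted p under 0.05. Of the 65, 9 had an unadjusted p under 0.05, and 10 had one by Spearman rho. The smallest adjusted p was 0.187, for Fezf2 with the dentate score (r = -0.494, rho = -0.515, permutation p = 0.00288). That score held 3 genes, and r with Fezf2 was -0.729 for Prox1, -0.329 for C1ql2 and 0.079 for Calb1. Fezf2 with the CA1 score had r = -0.527 and rho = -0.422 (permutation p = 0.0264, adjusted p = 0.246). Trib2 with the score of Rxra and Rxrb, retinoid X receptor genes and the only tested genes of the vitamin D receptor list, had r = 0.548 and rho = 0.487 (permutation p = 0.00746, adjusted p = 0.213). That r was 0.609 with Rxra alone, 0.166 with Rxrb alone and 0.346 with the list unfiltered. Fezf2 with other cortical layer markers had r = 0.387 (permutation p = 0.0688, adjusted p = 0.372). Without the 2 rats farthest from the median of the member, the 4 values of r with these list scores were -0.461, -0.398, 0.601 and 0.559. Over cage means they were -0.256, -0.371, 0.650 and 0.401. There 3 of the 65 had an unadjusted p under 0.05 and 0 an adjusted one. The 3 were Trib2 with oligodendrocyte markers, Trib2 with Rxra and Rxrb, and Etv1 with immediate early genes.

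Relatives of the 5 genes and the retinoid X receptor genes gave 0 calls as well. The tested relatives were Nr4a1 and Nr4a3, sister receptors of Nr4a2, and Etv5, a sister factor of Etv1, while Fezf1, Etv4, Trib1, Trib3 and Rarres1 were below the intensity filter. For high minus low Nr4a1 differed by 0.065 log2 (SE 0.068, limma adjusted p = 0.874), Nr4a3 by -0.030 (SE 0.046, adjusted p = 0.915) and Etv5 by 0.020 (SE 0.054, adjusted p = 0.953). Nr4a2 is induced by activity, and its r with the score of 8 immediate early genes was 0.202 (rho = 0.188, permutation p = 0.322, adjusted p = 0.686). Without the 2 rats farthest from the median of Nr4a2 that r was 0.219. Vdr, the vitamin D receptor gene, Cyp24a1, which inactivates the vitamin, Cyp27b1, which activates it, and Rxrg were below the intensity filter. Rxra, a partner of the receptor, differed by 0.053 log2 for high minus low (SE 0.050, adjusted p = 0.858).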

How the data were processed

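Hippocampal RNA of 26 rats was measured on Rat Gene 1.0 ST arrays, 1 array per rat. As deposited, the values are on the log2 scale, 1 per probe set and array. Tools listed in the submitters' processing notes are GCRMA and Partek 6.6, and the role of each is not given in the sources used here. All 29214 probe sets have a value on every array (0 missing), and no further normalization was applied. The annotation gave a single gene symbol for 15310 probe sets, several for 323 and none for 13581. RefSeq (GRCr8) held the gene ID of 15279 of the single-symbol probe sets. The probe set with the highest mean stood for its gene, and genes with a mean below 6.94, the median over probe sets, were not tested.

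Diet was a factor in a linear model over all 26 arrays (limma 3.58.1, R 4.3.3). Moderated tests were 2-sided and adjusted by Benjamini-Hochberg over 8485 genes, with calls at an adjusted p under 0.17, a rate named in the series design. Tail mark was tested with diet in the model. Covariation used log2 values minus diet means. Relations to list scores, the mean of a list's tested genes in a rat, used 100000 permutations within diets and were adjusted over 65 relations. The members and the 17 gene lists were chosen with earlier results of these data known. Named were the 5 members, Slc17a6, the tested relatives, the 3 nearest genes of each member and, per list, the first gene and up to 4 genes of largest absolute r. Fn1, Man1a1, Npy and Polr1b were named after their values were seen. The procedure was tested on simulated data with independent noise, in which every shift was larger than the diet differences of the 5 members. That test does not cover differences of their size. RNA quality and serum values were not analysed here.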

Additional observations from a re-analysis of the deposited data

Results flagged for a closer look

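In Slc17a6, high rat 25 lay far from the other 8 high-diet rats. Its log2 value was 7.00 (6.99681), and the nearest of the others was 7.56, a gap of 0.549 of the range of the group. This was 1 of 18 groups checked, and chance flags about 1 in 20 groups. The same rat had the lowest high-diet values of Fezf2, Nr4a2, Etv1 and Lxn, with gaps that did not reach the limit. Without it, high minus low of Slc17a6 was 0.60 log2, against 0.52 with it. The cause was not tested.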

How the results depend on the processing

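The count of called genes was 0 in each comparison. Between high and low it became 2 at an adjusted p under 0.31. It became 1 with quantile normalization, with centring on array medians and with the tail mark as a covariate, and Polr1b was the gene called in these 3 fits. It became 30 of 8485 when values over 2 SD from their diet mean were removed, and 15 of 8485 between high and control. That removal shrinks the spread within diets by its construction. Leaving out 1 rat gave 0 to 3 calls between high and low, 0 to 1 between high and control and 0 to 1 for the tail mark. The 3 calls came without high rat 25, and 2 calls came without low rat 2 or without control rat 17. Whether a member was among the called genes is not given, because the members were selected on these differences. The other alternatives gave 0 calls in these comparisons, and low minus control gave 0 in all of them. For the 5 members, which were selected on these differences, the sign for high minus low and high minus control was kept when each rat was left out. The tail mark as a covariate and the fit of only the diets compared do not apply to the tail mark, and other probe sets of the members could not be used because each has 1. For the diets, no replicate numbers pair the rats. No paired analysis of the diets was possible because subject numbers are unique and no 2 diets share one. Marked and unmarked cage mates can be paired, and 12 such pairs gave 0 calls for the tail mark.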

Other observations

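Genes that ran against the members between rats were counted after their values were seen. With a Pearson r of -0.6 or below over 26 rats there were 66 genes for Etv1, 51 for Fezf2, 23 for Lxn, 12 for Nr4a2 and 4 for Trib2, of 8484 genes each. At 0.6 or above there were 28 for Etv1, 65 for Fezf2, 12 for Lxn, 10 for Nr4a2 and 8 for Trib2. The lowest r of both Etv1 (-0.783) and Fezf2 (-0.752) was with Cdk4, a cyclin-dependent kinase gene of the cell cycle. The lowest r was with Tiam1, a Rac exchange factor gene, for Lxn (-0.731), with Kat8, a histone acetyltransferase gene, for Nr4a2 (-0.652), and with Ebp, a gene of cholesterol synthesis, for Trib2 (-0.681). These are descriptions of 26 arrays, with no test.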
